A study of Mus musculus with 12 samples.

Results

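The genes described here are the 6 mouse genes H2-Aa, H2-Ab1, H2-Eb1, H2-DMa, H2-DMb1 and Ciita, which serve antigen presentation on major histocompatibility complex (MHC) class II. They were chosen by gene symbol in the platform annotation from 19505 measured genes, and each had 1 probe set on the array. The study placed RNA of cultured cardiac fibroblasts on 12 whole-transcript microarrays. The cells were taken from hearts of neonatal wild-type C57BL/6J mice, 1-7 days old, and had become myofibroblasts after 10 to 14 days in culture. The 4 groups of 3 arrays received 40 nM soluble CD74 (sCD74) with 8 nM macrophage migration inhibitory factor (MIF), 40 nM sCD74 alone, 8 nM MIF alone, or carrier solution, each for 8 h. The titles carry a shared code for all 4 arrays of a replicate number, 1 array of each group. The labels do not state whether the 3 arrays of a group derive from different cell preparations. The p-values therefore rest on array-to-array spread alone, which may be technical.

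MHC class II molecules are pairs of an alpha and a beta chain that show peptides from the endocytic pathway to CD4+ T cells. Macrophages, dendritic cells and B cells make them steadily, and fibroblasts can be induced to make them by interferon gamma. H2-Aa and H2-Ab1 encode the alpha and beta chain of the mouse molecule I-A, and H2-Eb1 encodes the beta chain of I-E. C57BL/6 mice make no I-E protein because their gene for its alpha chain is defective. H2-DMa and H2-DMb1 encode the H2-DM dimer, which exchanges the remnant of the invariant chain for peptide in late endosomes. The invariant chain is CD74, which also acts at the cell surface as a receptor for MIF; its own transcript was not analysed here. Ciita encodes the coactivator that binds no DNA itself and switches class II genes on through factors bound at their promoters.

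Those factors recognise the X box and the Y box, a short distance upstream of the start of class II genes. Promoter windows of 250 bases before and 50 bases after the start were read from RefSeq (GRCm38.p6) for 4 members. The windows of 3 of them are shown because each holds both elements in the same order. Capitals mark matches on either strand to CTNGNAACT, a pattern for the X box written after reading these windows, and to the Y box core CCAAT, which reads ATTGG on the opposite strand. The window of H2-Aa is chr17:34287774-34288073 (minus strand), that of H2-Eb1 is chr17:34305617-34305916 (plus strand) and that of H2-DMb1 is chr17:34152941-34153240 (plus strand).
H2-Aa: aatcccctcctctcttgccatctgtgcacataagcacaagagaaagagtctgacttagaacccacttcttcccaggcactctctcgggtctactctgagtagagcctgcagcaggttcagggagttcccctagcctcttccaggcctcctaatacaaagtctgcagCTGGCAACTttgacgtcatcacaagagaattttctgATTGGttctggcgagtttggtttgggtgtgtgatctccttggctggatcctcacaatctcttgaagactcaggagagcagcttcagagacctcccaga
H2-Eb1: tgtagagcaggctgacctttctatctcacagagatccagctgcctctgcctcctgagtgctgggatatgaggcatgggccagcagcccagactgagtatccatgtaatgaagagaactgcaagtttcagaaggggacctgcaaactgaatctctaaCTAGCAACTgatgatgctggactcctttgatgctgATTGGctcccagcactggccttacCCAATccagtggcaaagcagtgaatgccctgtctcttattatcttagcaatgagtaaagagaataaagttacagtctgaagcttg
H2-DMb1: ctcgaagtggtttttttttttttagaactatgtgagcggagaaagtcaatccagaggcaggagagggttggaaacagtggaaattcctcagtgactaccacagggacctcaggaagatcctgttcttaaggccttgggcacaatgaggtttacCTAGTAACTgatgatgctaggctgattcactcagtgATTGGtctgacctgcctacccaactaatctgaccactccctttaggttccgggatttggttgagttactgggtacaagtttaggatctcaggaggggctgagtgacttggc
The X pattern and the inverted Y box were 27 bases apart in H2-Aa, 26 in H2-Eb1 and 27 in H2-DMb1. Of 32851 promoter windows of this length, 4.1% held the X pattern, 37.4% held the Y box core and 0.0487% held the X pattern followed by an inverted Y box within 30 bases. Because the pattern was written from these windows, the last share is a description. For H2-DMa the table lists 2 starts. Neither window holds the X pattern, and the one at chr17:34125268-34125567 holds a single Y box core. The transcripts of these 2 starts are not named. Whether either window is the promoter that H2-DMa uses in these cells was not tested, so the absence of the X pattern is a statement about these windows only.

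The cultures carried the transcripts of their label. Col1a1, a fibrillar collagen chain, and Acta2, the smooth muscle actin of myofibroblasts, stood at log2 values of 16.11 ± 0.16 and 16.56 ± 0.23 (SD, n = 12 arrays). Macrophage transcripts were also present in all cultures: of 22 measured macrophage markers, 4 (Cd163, Lyve1, Timd4 and Ccr2) had a mean below 7.532, the mean of the arrays' medians over 5222 negative control probe sets. Adgre1, a surface receptor used to identify mouse macrophages, averaged 13.24, and Ptprc, the pan-leukocyte antigen CD45, averaged 11.56. Most markers of the other cells that carry class II, dendritic cells and B cells, were low. The dendritic cell genes Itgax and Flt3 averaged 7.09 and 5.7, and the B cell receptor gene Cd79a averaged 5.77. The means of 8 of 11 dendritic cell and 6 of 7 B cell markers lay below the negative control median. Those above it were Cd80 (11.77), Ccr7 (8.98) and Cd86 (8.12) for dendritic cells and Fcer2a (9.21) for B cells. Of 6 T cell markers 4 lay below it, and Cd4 (10.43) and Cd2 (8.19) lay above.

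Against this background 4 of the 6 genes, H2-Aa, H2-Eb1, H2-DMa and Ciita, lay below their array's own negative control median on all 12 arrays. H2-Ab1 and H2-DMb1 lay above it on all 12. The share of negative control probe sets brighter than the member ranged from 50.8% to 72.0% for H2-Aa, from 70.3% to 78.9% for H2-Eb1, from 65.4% to 84.9% for H2-DMa and from 56.0% to 68.5% for Ciita. It ranged from 25.7% to 43.3% for H2-Ab1 and from 11.0% to 38.5% for H2-DMb1. A value below the negative control median is at most a bound on the RNA. For these 4 genes the differences below are therefore differences of deposited log2 values and not folds of RNA. H2-Ab1 and H2-DMb1 also lay within the range of the negative controls, and the scale of the values is uncertain. Their differences are likewise given as differences of deposited log2 values. Levels of different probe sets were not compared with each other.

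**Figure D1:**
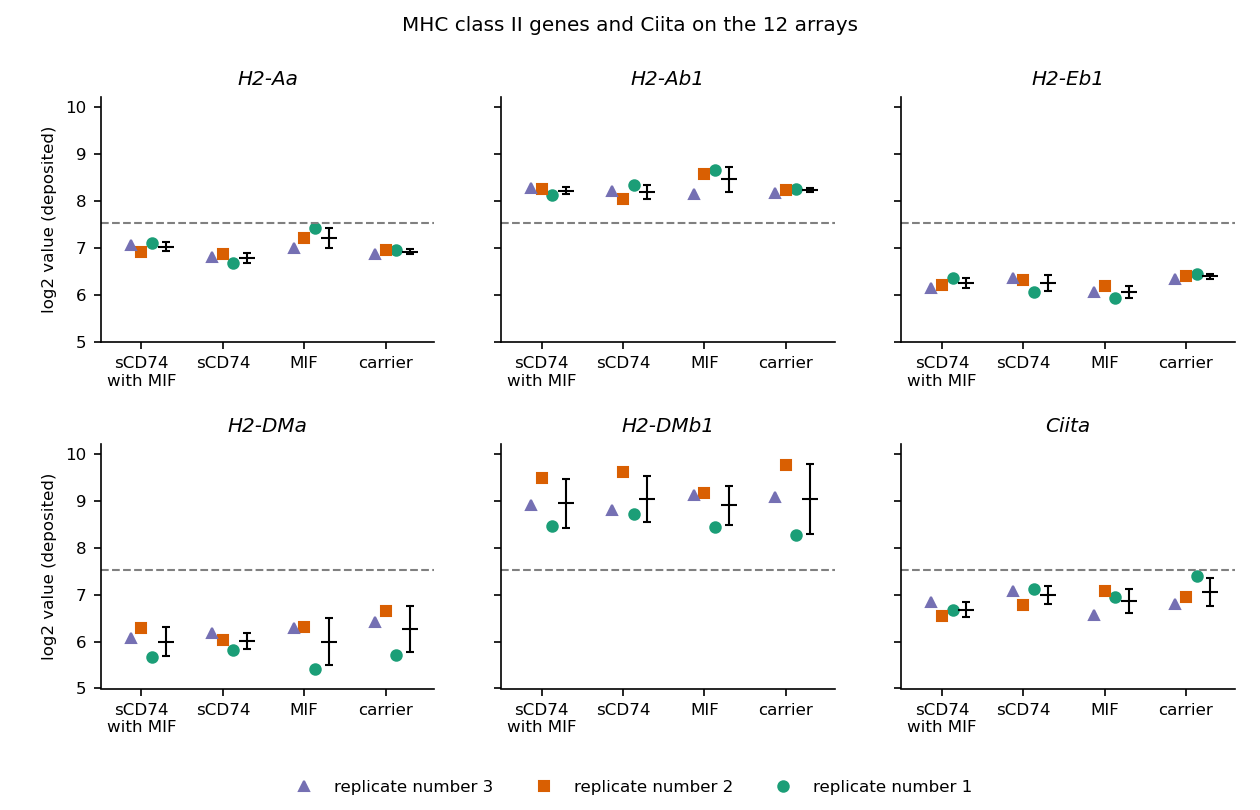
Deposited log2 value of each member on the 12 arrays by group, with symbols for the replicate number, the group mean ± SD (n = 3) in black and the mean negative control median of 7.532 as a dashed line. H2-Ab1 and H2-DMb1 lie above the line in all groups, and only H2-DMb1 and H2-DMa show replicate number 1 lowest in all 4 groups.

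The presenting molecules themselves are formed by the I-A and I-E chains. H2-Ab1 had log2 values of 8.11, 8.24 and 8.27 with sCD74 and MIF together, 8.33, 8.03 and 8.2 with sCD74, 8.65, 8.56 and 8.14 with MIF, and 8.25, 8.22 and 8.17 with carrier, in replicates 1, 2 and 3. The MIF arrays of replicates 1 and 2 were the highest of the 12, while that of replicate 3 lay below all 3 carrier arrays, so the groups overlapped. The difference of MIF from carrier was +0.24 ± 0.14 (SE), with a 95% interval from -0.08 to 0.55 and an adjusted p of 1.0 by limma. Against carrier, co-treatment differed by -0.01 (95% interval -0.32 to 0.3) and sCD74 by -0.03 (-0.34 to 0.28).

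H2-Aa had values of 7.1, 6.91 and 7.05 with both proteins, 6.67, 6.87 and 6.8 with sCD74, 7.41, 7.2 and 7.0 with MIF, and 6.94, 6.94 and 6.86 with carrier. All MIF values lay above all carrier values. The difference of +0.3 ± 0.13 (SE) had an unadjusted limma p of 0.04 and an adjusted p of 1.0. H2-Eb1 went the other way, with 6.36, 6.2 and 6.15 with both proteins, 6.05, 6.32 and 6.35 with sCD74, 5.93, 6.19 and 6.05 with MIF, and 6.44, 6.39 and 6.34 with carrier. All its MIF values lay below all carrier values, by -0.34 ± 0.13 (SE), with an unadjusted limma p of 0.0212 and an adjusted p of 1.0. The MIF and carrier groups thus did not overlap in log2 value for 2 of the 6 members, 1 higher and 1 lower. Over all genes the share was 6.89% (3.64% higher and 3.25% lower). By the share of brighter negative controls on the same array, the groups overlapped for both genes. In replicates 1, 2 and 3 it was 50.8%, 55.9% and 59.8% with MIF and 64.8%, 59.5% and 67.3% with carrier for H2-Aa. For H2-Eb1 it was 78.4%, 74.9% and 77.1% with MIF and 73.8%, 70.3% and 76.1% with carrier. With 3 arrays in each group, the smallest p that exact permutation allows on both sides is 0.1.

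H2-DMb1 had 8.45, 9.49 and 8.9 with both proteins, 8.71, 9.6 and 8.79 with sCD74, 8.43, 9.16 and 9.11 with MIF, and 8.26, 9.75 and 9.08 with carrier. Within every group the array of replicate 2 was the highest and that of replicate 1 the lowest, and the group means spanned only 8.9 with MIF to 9.03 with carrier. Its partner H2-DMa had 5.67, 6.28 and 6.07 with both proteins, 5.82, 6.03 and 6.18 with sCD74, 5.41, 6.31 and 6.28 with MIF, and 5.72, 6.65 and 6.42 with carrier. Replicate 1 was lowest in all 4 groups for this gene too. Ciita, the coactivator, had 6.67, 6.54 and 6.85 with both proteins, 7.12, 6.78 and 7.08 with sCD74, 6.95, 7.07 and 6.57 with MIF, and 7.39, 6.95 and 6.8 with carrier. Its mean was 6.68 ± 0.16 with co-treatment and 7.05 ± 0.3 with carrier (SD, n = 3), and the groups overlapped because replicate 3 stood at 6.85 with both proteins and 6.8 with carrier.

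No member passed limma's test against carrier with Benjamini-Hochberg adjustment over all genes. The count was 0 of 6 members and 0.0% of the 19505 genes for co-treatment, for sCD74 alone and for MIF alone. At an unadjusted p under 0.05 stood 780 genes for co-treatment, 350 for sCD74 and 653 for MIF, which are 4.0%, 1.79% and 3.35% of the genes. This fit leaves the spread between replicate numbers in the error. With the number as a block the counts rose to 1606, 817 and 1254 of the 19505 genes in the same order, again with 0 calls. Among the members, the smallest unadjusted limma p without the block was 0.0681 for co-treatment (Ciita, -0.36 ± 0.18, SE) and 0.253 for sCD74 (H2-Eb1, -0.15 ± 0.13). With the block it was 0.0501 for co-treatment (Ciita, -0.36 ± 0.17) and 0.102 for sCD74 (H2-DMa, -0.25 ± 0.14). The median difference of the 6 members was -0.12 for co-treatment, -0.09 for sCD74 and -0.16 for MIF, against 0.0014, -1e-05 and 0.01 over all genes. No member separated co-treated from carrier arrays (0 of 6, against 8.49% of genes) or sCD74 from carrier arrays (0 of 6, against 5.21%). The 3 comparisons share the carrier arrays. In the fit without a block the precision differed between members: the 95% interval of the co-treatment difference ran from -0.9 to 0.72 for H2-DMb1, and from -0.32 to 0.3 for H2-Ab1. These intervals include the spread between replicate numbers. With the number as a block the interval ran from -0.45 to 0.27 for H2-DMb1 and from -0.31 to 0.29 for H2-Ab1. Within numbers 1, 2 and 3 the co-treated array differed from its carrier array by 0.18, -0.27 and -0.18 for H2-DMb1. For H2-DMa the array stood below its carrier array in all 3 numbers, both with co-treatment (-0.05, -0.38 and -0.35) and with MIF (-0.3, -0.35 and -0.15). The same held for H2-Eb1, with co-treatment (-0.08, -0.19 and -0.19) and with MIF (-0.51, -0.2 and -0.29). H2-Aa stood above carrier in all 3 numbers with MIF (0.48, 0.27 and 0.14). How many of all genes keep 1 sign in the 3 numbers was not counted. With the block the co-treatment and MIF differences had limma adjusted p of 0.658 and 0.786 for H2-DMa, and of 0.768 and 0.739 for H2-Eb1. For H2-Aa with MIF it was 0.755.

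**Figure D2:**
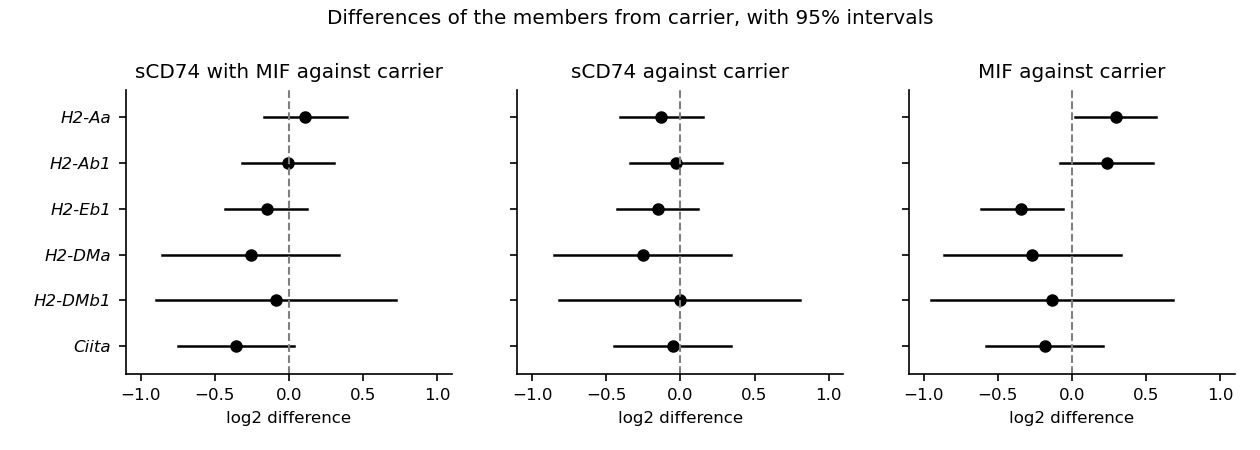
Log2 difference of each member from carrier with its 95% interval from limma, for sCD74 with MIF, sCD74 alone and MIF alone (n = 3 arrays per group). For MIF the intervals of H2-Aa (0.02 to 0.57) and H2-Eb1 (-0.61 to -0.06) leave out 0 on opposite sides before adjustment, and the widest intervals belong to H2-DMb1 and H2-DMa. The fit shown has no block for the replicate number. For co-treatment the H2-DMa interval ran from -0.86 to 0.34 here and from -0.57 to 0.05 with the block.

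The comparisons with co-treatment on top ask what each protein adds to the other. MIF added to sCD74 gave 0 calls among the members and 0.0% among all genes, with 520 genes (2.67%) at an unadjusted p under 0.05. H2-Aa was the 1 member whose co-treated arrays (6.91 to 7.1) lay wholly above the sCD74 arrays (6.67 to 6.87), against 7.48% of genes without overlap (3.95% higher), and its adjusted p was 1.0. sCD74 added to MIF gave 0 calls (0.0% of genes, with 465 or 2.38% at an unadjusted p under 0.05), and 0 members without overlap, against 7.16% of genes. The departure of co-treatment from the sum of the single differences passed for no member and for 0.0% of genes, with 363 genes (1.86%) at an unadjusted p under 0.05. It was largest in size for H2-Eb1, at 0.33 ± 0.18 (SE, adjusted p = 1.0).

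H2-DMa and H2-DMb1 differed between the replicate numbers, with the group held constant in the fit. H2-DMb1 averaged 8.97 ± 0.15 in number 3, 9.5 ± 0.25 in number 2 and 8.46 ± 0.18 in number 1 (SD, n = 4 arrays each). The log2 values of the 3 numbers did not overlap: they ran from 8.79 to 9.11, from 9.16 to 9.75 and from 8.26 to 8.71. H2-DMa averaged 6.24 ± 0.15, 6.32 ± 0.26 and 5.65 ± 0.17 in numbers 3, 2 and 1, and numbers 3 and 2 both lay above number 1 without overlap. By the share of brighter negative controls on the same array, only numbers 2 and 1 stayed apart for either gene. For H2-DMb1 it ran from 18.2% to 31.3% in number 3, from 11.0% to 18.5% in number 2 and from 25.8% to 38.5% in number 1. For H2-DMa it reached 81.3% in number 3 and began at 80.9% in number 1. Between number 2 and number 1 both genes rose, H2-DMb1 by 1.04 ± 0.14 (SE, limma adjusted p = 0.000349) and H2-DMa by 0.66 ± 0.12 (adjusted p = 0.00295). That is 2 of 6 members called higher and 0 lower, where 16.9% of all genes were called, 9.5% higher and 7.38% lower. Their groups were also the 2 without overlap, where 22.2% of genes had none (11.5% higher).

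Between number 3 and number 1 the same pair passed, H2-DMa with a difference of +0.58 ± 0.12 (SE, limma adjusted p = 0.0121) and H2-DMb1 with +0.51 ± 0.14 (adjusted p = 0.0465). Here 9.23% of genes were called, 5.48% higher and 3.75% lower, and 14.3% had no overlap (7.86% higher). The H2-DMb1 call rests on single arrays. It was lost without replicate 1 or 3 of co-treatment, of MIF or of carrier, at adjusted p between 0.0806 and 0.166, over a range of 0.0295 to 0.166 for the 8 arrays left out in turn. The H2-DMa call was lost without MIF replicate 3 (adjusted p = 0.0517, in a range of 0.00995 to 0.0517). Between number 3 and number 2 no member passed, against 1.15% of genes (0.441% higher and 0.708% lower). H2-DMb1 still stood lower in all 4 groups in number 3 (-0.53 ± 0.14, SE, limma adjusted p = 0.107). Its log2 values did not overlap, as for 10.4% of genes (4.94% lower).

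The other 4 members passed in none of the 3 comparisons of numbers. H2-Ab1 averaged 8.2 ± 0.05 in number 3, 8.26 ± 0.22 in number 2 and 8.34 ± 0.23 in number 1. Its difference between numbers 2 and 1 was -0.08, with a 95% interval from -0.34 to 0.18. H2-Aa averaged 6.93, 6.98 and 7.03, H2-Eb1 6.22, 6.28 and 6.19, and Ciita 6.83, 6.83 and 7.03 in numbers 3, 2 and 1, with adjusted p between 0.411 and 0.99 in the 3 comparisons. Because each number holds 4 arrays that may share a preparation, these p-values compare arrays and leave out the spread between further preparations.

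**Figure D3:**
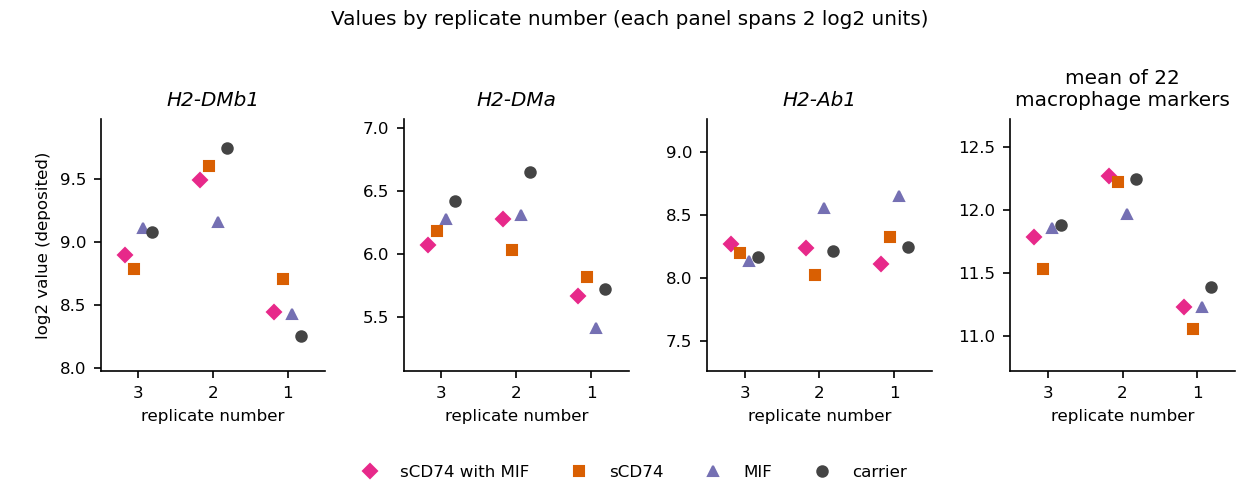
Deposited log2 values of H2-DMb1, H2-DMa and H2-Ab1 and the mean of 22 macrophage markers on each array, by replicate number (3, 2, 1), with symbols for the 4 groups. H2-DMb1 and the marker mean are both highest in number 2 and lowest in number 1, whereas H2-Ab1 overlaps in all 3 numbers.

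Macrophage content moved with the same numbers. The mean log2 value of the 22 macrophage markers lay between 11.53 and 11.88 in number 3, between 11.97 and 12.27 in number 2 and between 11.06 and 11.39 in number 1, without overlap. Between numbers 2 and 1, 18 of the 22 markers were called higher and 0 lower, with a median difference of 1.08 against -0.02 over all genes. Csf1r, the receptor for macrophage colony-stimulating factor, differed by 2.04 ± 0.13 (SE) and Adgre1 by 1.53 ± 0.11. Between numbers 3 and 1, 12 were called higher and 1, Lyve1, lower, with a median of 0.52. Between numbers 3 and 2, 4 were called lower, with a median of -0.43. Endothelial markers ran the opposite way against number 1, with 8 of 10 called lower and 1 higher for number 2 (median -1.3) and 7 lower for number 3 (median -0.89). Of 5 myofibroblast markers 1 was called lower for number 2 and 4 for number 3, and of 11 fibroblast markers none was called in either comparison. In bulk RNA, fewer cells of a type and less RNA per cell cannot be told apart. The part of macrophage, endothelial or myofibroblast content in the H2-DM values was not tested.

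Across the treatments the macrophage mean overlapped: it lay between 11.23 and 12.27 with both proteins, 11.06 and 12.22 with sCD74, 11.23 and 11.97 with MIF, and 11.39 and 12.25 with carrier. Within numbers its order did not always match that of H2-DMb1. In number 1 carrier had the highest macrophage mean (11.39) and the lowest H2-DMb1 value (8.26), while sCD74 had the lowest macrophage mean (11.06) and the highest H2-DMb1 value (8.71). In number 2 the MIF array was the lowest for both, at 11.97 and 9.16, and in number 3 the sCD74 array was the lowest for both, at 11.53 and 8.79.

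Other genes of the class II pathway also differed between the numbers. Of 13 measured genes listed for peptide loading, editing and trafficking, 9 were called higher and 0 lower between numbers 2 and 1 (median 0.45), where 9.5% of all genes were called higher and 7.38% lower. Not all genes of this list serve class II alone. Between numbers 3 and 1, 5 were called higher and 0 lower (median 0.22), where 5.48% of all genes were called higher and 3.75% lower. The median over all genes was -0.02 in both comparisons. The 4 with the smallest p between numbers 2 and 1 were Unc93b1, a chaperone of endosomal Toll-like receptors (+1.27 ± 0.13, SE), Ifi30, the lysosomal thiol reductase GILT (+1.35 ± 0.14), Ctss, the protease that trims the invariant chain (+0.89 ± 0.12), and Marchf1, a ubiquitin ligase that removes class II from the surface (+1.2 ± 0.17), all with limma adjusted p of 0.000472 or less. H2-DMb2, the close paralog of H2-DMb1, was called as well in both comparisons, at adjusted p = 0.0229 and 0.00546, from a mean of 6.64 that lies below the negative control median. The genes are near copies, so their probe signals may not be fully separate. The class II genes H2-Eb2, H2-Oa and H2-Ob averaged 5.81, 5.5 and 6.81, all below the negative control median, and passed in neither comparison. Between numbers 3 and 2, 0 of the 13 passed.

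**Figure D4:**
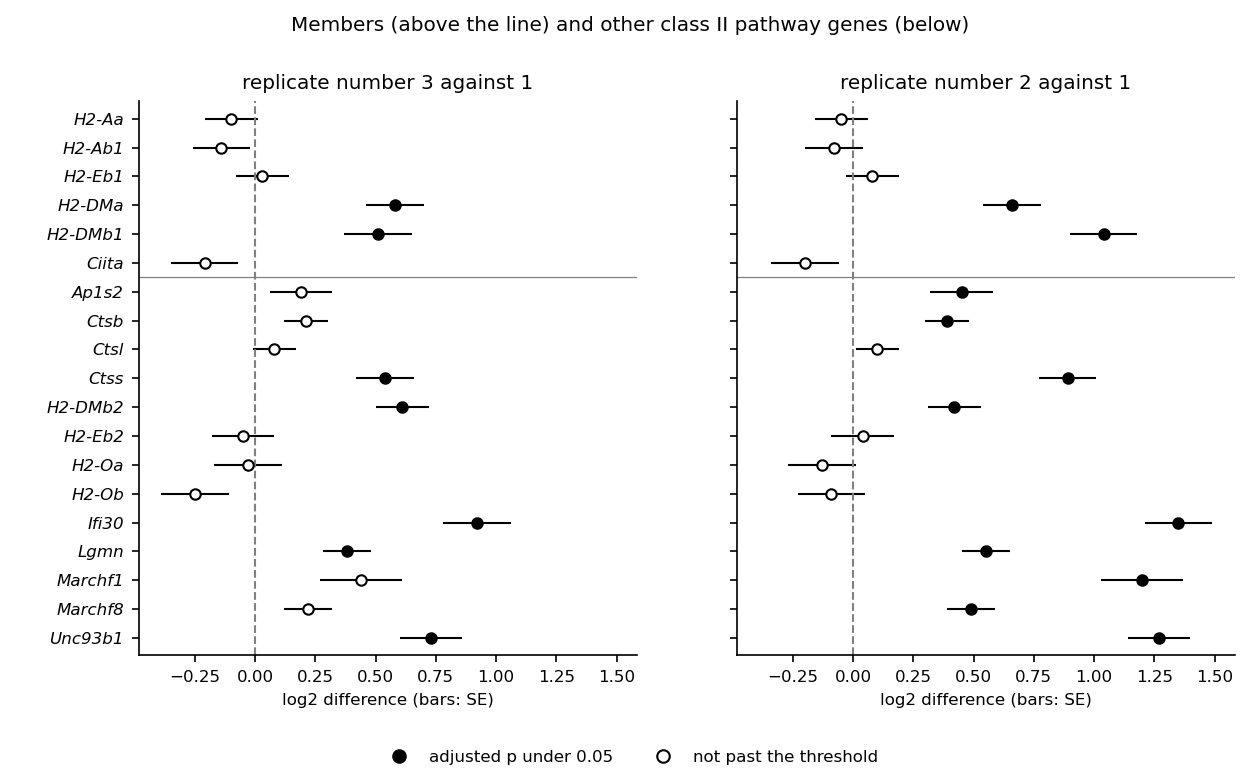
Log2 difference between replicate numbers 3 and 1 and between 2 and 1 for the 6 members (above the line) and 13 other class II pathway genes (below it), with standard errors from limma (n = 4 arrays per number) and filled symbols for adjusted p under 0.05. The pair H2-DMa and H2-DMb1 lies to the right with the lysosomal genes Ctss, Ifi30 and Lgmn, the lysosomal protease gene Ctsl lies near 0 (0.08 and 0.1), Ctsb passes only for 2 against 1, and the I-A and I-E chains and Ciita lie near 0 or to the left.

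Of 22 measured transcription and signalling genes of the pathway, 3 averaged below the negative control median. Rfx5, Rfxap and Rfxank, the 3 subunits of the X box factor RFX, averaged 10.37 ± 0.25, 9.87 ± 0.15 and 8.66 ± 0.26 (SD, n = 12 arrays), and none passed in any comparison. Ifngr1, a chain of the interferon gamma receptor, averaged 13.87 ± 0.14 and did not pass either. Of the 22 genes, 4 were called higher and 1 lower between numbers 2 and 1, where 9.5% of all genes were called higher and 7.38% lower. Their median was -0.01 against -0.02 over all genes. The higher ones were Spi1, which encodes the myeloid factor PU.1 (+0.97 ± 0.11, SE), Irf8 (+0.77 ± 0.15), the interferon response factor Irf1 (+0.7 ± 0.15) and the receptor chain Ifngr2 (+0.43 ± 0.1), and the lower one was the acetyltransferase gene Kat2b (-0.4 ± 0.11). Between numbers 3 and 1, 2 were called higher, Spi1 (+0.56 ± 0.11) and Irf1 (+0.64 ± 0.15), and 0 lower. Of all genes 5.48% were called higher there and 3.75% lower. Between numbers 3 and 2 none of the 22 passed.

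With treatment, neither list gave a call in any of the 6 comparisons between groups. Irf1, which drives the interferon-responsive promoter of Ciita, differed from carrier by +0.45 ± 0.31 (SE) with co-treatment, -0.13 ± 0.31 with sCD74 and +0.58 ± 0.31 with MIF, at limma adjusted p of 0.999, 1.0 and 1.0. Those with the smallest p in the co-treatment comparison were Irf8 (-0.5 ± 0.3) and Ifngr1 (+0.2 ± 0.13) among the factors, and H2-Eb2 (+0.27 ± 0.15) and Marchf1 (-0.45 ± 0.44) among the loading genes. For sCD74 they were Usf1 (-0.19 ± 0.17), Jak1 (+0.11 ± 0.12), H2-Eb2 (+0.2 ± 0.15) and Ctss (-0.36 ± 0.32). For MIF they were Irf4 (-0.4 ± 0.19), Irf1, H2-Eb2 (+0.17 ± 0.15) and Ap1s2 (-0.23 ± 0.21). Irf4 and H2-Eb2 averaged below the negative control median.

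The members did not share 1 pattern over the 12 arrays. As a description over arrays that share replicate numbers and treatments, Pearson's r was 0.809 between H2-DMa and H2-DMb1 and 0.638 between H2-Aa and H2-Ab1. It was -0.586 between H2-Ab1 and H2-Eb1, and between -0.45 and 0.378 for Ciita with the other members. Of the 5 members other than Ciita, H2-DMb1 varied most over the 12 arrays (SD 0.48). The SD was 0.36 for H2-DMa and 0.16 to 0.2 for the I-A and I-E chains, so H2-DMb1 weighs most in their mean. The genes most like the mean of these 5 members were Mknk2 (r = 0.973), 5430427O19Rik (0.96), Map2k6 (0.953), Daglb (0.943) and Siae (0.943). After the mean of each replicate number was subtracted, r was 0.827, 0.729, 0.687, 0.481 and 0.465 in the same order.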

How the data were processed

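Values are log2 probe set values as deposited by the authors, 1 column per array, used without further normalization. The submitters' processing notes name RMA, Expression Console and the Transcriptome Analysis Console and give no versions. RMA commonly forces one intensity distribution on all arrays, so a shift of all RNA would be lost. Array medians lay between 8.005 and 8.139, and values reached 18.3944, above the 16-bit range of a scanner, so the scale is uncertain; no source used here states a rescaling. Scanner files were not used here, so background correction could not be varied.

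Of 28846 probe sets, 6640 were controls and 19572 had 1 gene symbol. The highest-mean probe set stood for a gene, which left 19505 genes. No symbol changed when matched by Entrez ID to RefSeq genes. The fits used lmFit and eBayes of limma 3.58.1 (R 4.3.3), with 4 group means over 12 arrays. Replicate numbers were compared in a fit with group and number. Tests were two-sided, with Benjamini-Hochberg adjustment over all genes at 0.05. The code was tested on simulated data. Array number limits the precision.

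Same-numbered arrays were taken as pairs because their titles share a code. Their deviations from group means correlated at 0.0971 to 0.647 (median 0.433, above 0.1 in 17 of 18 pairs), against a median of -0.212 for arrays of different number. The replicate number as a block was an alternative.

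Members and lists were chosen with earlier results of these data known. The text names the 6 members, selected regulators and markers, list members that were called (up to 4, otherwise the 4 with the smallest p, or 2 where none was called) and the 5 genes most like the members' mean. Genes named beyond this rule were chosen after their values were seen.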

Additional observations from a re-analysis of the deposited data

How the results depend on the processing

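The alternatives were a replicate block, arrays centred on their median, quantile normalization once more, an intensity trend with robust variance, only genes above the negative control median, the mean of all probe sets of a gene, each array left out in turn, replicate number 1 left out, and no group term for the comparisons of numbers. With the replicate block 0 genes passed in each of the 6 comparisons of groups, as without it, and 1606, 817 and 1254 genes had an unadjusted p under 0.05 for co-treatment, sCD74 and MIF against carrier. It changed no call of a member. The block with trend and robust variance, chosen after seeing the data, called 6 genes for co-treatment against carrier, 2 for co-treatment against sCD74 and 1 for MIF against carrier; the cause was not tested. Left-out arrays gave 0 calls throughout the comparisons of groups, 2172 to 2882 genes between numbers 2 and 1 (3291 with all arrays), 978 to 1505 between 3 and 1 (1800) and 59 to 227 between 3 and 2 (224). The last rose to 734 with trend and robust variance and to 540 among genes above the negative control median, where fewer genes were tested. H2-DMb1 between numbers 3 and 2 then passed, at adjusted p = 0.0494 and 0.0492. Its call between numbers 3 and 1 was lost with quantile normalization once more (adjusted p = 0.0519).

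No called member difference changed sign. Among those not called, left-out arrays turned the sign of H2-DMb1 with sCD74 (-0.39 to 0.36), MIF (-0.52 to 0.23) and co-treatment (-0.47 to 0.27) against carrier. The sign also turned for H2-DMa with MIF (-0.54 to 0.03, though -0.15 to -0.35 within numbers), for H2-Ab1 with sCD74 (-0.1 to 0.05) and co-treatment (-0.04 to 0.04), and for Ciita with sCD74 (-0.18 to 0.12). Between numbers the same held for H2-Aa for 2 against 1 (-0.13 to 0.03) and 3 against 2 (-0.11 to 0.02), H2-Ab1 for 3 against 2 (-0.14 to 0.05), H2-Eb1 for 3 against 1 (-0.05 to 0.11) and Ciita for 3 against 2 (-0.13 to 0.13). H2-DMb1 with sCD74 turned to 0.01 with centring and 0.02 with quantile normalization, and Ciita between numbers 3 and 2 to 0.02 and 0.03. Without replicate number 1, H2-Ab1 with co-treatment turned to 0.06 and Ciita with sCD74 to 0.05. The comparisons of groups were fitted without a block here, so a left-out array also unbalances the replicate numbers; other causes were not tested.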

Other observations

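The genes closest to H2-DMb1 alone over the 12 arrays, looked up after its values were seen, were Pgap6 (r = 0.976), Plekhb2 (0.972), Setdb1 (0.97), Cox4i1 (0.969) and Syk, a kinase of immune receptor signalling (0.967). After the mean of each replicate number was subtracted, r lay between 0.793 and 0.852.

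Cd86, a co-stimulatory molecule of antigen-presenting cells, was 1.35 ± 0.18 (SE) higher in number 2 than in number 1 (limma adjusted p = 0.000229) and 0.91 ± 0.18 higher in number 3 than in number 1 (adjusted p = 0.00705), from a mean of 8.12. Cd80, the related ligand, averaged 11.77 and passed in neither comparison (adjusted p = 0.129 and 0.212). Of the 11 dendritic cell markers, Cd86 among them, 1 was called higher and 0 lower between numbers 2 and 1 (median 0.07). Between numbers 3 and 1, 1 was called higher and 1 lower (median -0.06). The lower one was Flt3 (-0.52 ± 0.11, SE, limma adjusted p = 0.0115), whose mean of 5.7 lies below the negative control median.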
